A study of Mus musculus with 4 samples.

Results

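The cells described here are insulin-producing beta cells of cultured mouse islets with high levels of Pdyn, Serpina7 and Bnip3. They were chosen by their measured values: in the 2 TCDD libraries, a barcode counted as a beta cell when it held at least 12000 UMIs (unique molecular identifiers, the counted RNA molecules), at least 20% of them from Ins1 and Ins2 and less than 1% from Gcg, Sst and Ppy. The beta barcodes of both libraries were pooled, and the top 15% by the summed CPM (UMIs of a gene scaled to a fixed total) of the 3 genes were taken. This gave 401 members among 2674 beta barcodes and 3464 barcodes of at least 12000 UMIs. The lowest score among members was 241.9 CPM and the highest among the other beta barcodes was 241.8 CPM, against a pooled median of 74.1 CPM, and 91 barcodes lay within 10% of the limit, so no gap separated the members from the rest.

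Both groups were islets of C57BL/6 mice, isolated by collagenase digestion, cultured in medium, treated with TCDD, a dioxin known as a ligand of the aryl hydrocarbon receptor, and dissociated into single cells. The first group carried the genotype Malat1-/- (Malat1-null), which lacks the long non-coding RNA Malat1, and the second was wild type. There was 1 library per group, prepared with the 10x 3-prime v3 kit, and neither the number of animals nor the dose of TCDD was given in the labels. The series holds 4 samples, and its 2 DMSO libraries were not analysed here. Genotype and library therefore cannot be told apart, no test between groups could be made, and the intervals below are 95% intervals that cover counting error only.

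Beta cells burn glucose mainly through mitochondria, and they normally keep the lactate branch of glycolysis low. When oxygen is short, the transcription factor HIF-1 is stabilised and binds a short DNA core near genes of glycolysis, of mitochondrial turnover and of oxygen sensing. The form of the core used here is ACGTG. Bnip3, a mitochondrial protein that marks mitochondria for removal, is a textbook HIF-1 target. Pdyn encodes prodynorphin, the precursor of the dynorphin opioid peptides, and Serpina7 encodes thyroxine-binding globulin, a serum carrier of thyroid hormone. Neither is a standard hypoxia gene, so the 3 genes of the score do not come from a common known programme.

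Promoter sequences are shown because the hypoxia core was found in the window of Bnip3 and of several genes that were high in members, and in no window of Pdyn or Serpina7. The windows, credited to RefSeq on GRCm38.p6, run 250 bases before to 50 bases after each start site and are printed 5′ to 3′ on the gene's strand, with ACGTG, or CACGT where the core lies on the other strand, in capitals. Bnip3 (chr7:138909457-138909756, minus strand) holds overlapping cores on both strands, at -108 and -107 counted from the start site. Pgk1, the glycolytic phosphoglycerate kinase (chrX:106186850-106187149, plus strand), holds cores at -150 and -131. Fam162a, a hypoxia-inducible mitochondrial protein (chr16:36071512-36071811, minus strand), holds 1 core at -81, and Ero1l, an ER oxidase listed in RefSeq as Ero1a (chr14:45318523-45318822, minus strand), holds 1 core at -63. Pdyn (chr2:129699889-129700188, minus strand), shown for contrast, holds none in this window or in its other one.
Bnip3: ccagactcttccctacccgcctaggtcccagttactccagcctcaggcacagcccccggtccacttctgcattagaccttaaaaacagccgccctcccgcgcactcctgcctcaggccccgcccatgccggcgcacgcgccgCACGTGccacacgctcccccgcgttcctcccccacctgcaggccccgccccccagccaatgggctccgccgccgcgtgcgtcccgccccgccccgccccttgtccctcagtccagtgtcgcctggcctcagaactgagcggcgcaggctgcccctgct
Pgk1: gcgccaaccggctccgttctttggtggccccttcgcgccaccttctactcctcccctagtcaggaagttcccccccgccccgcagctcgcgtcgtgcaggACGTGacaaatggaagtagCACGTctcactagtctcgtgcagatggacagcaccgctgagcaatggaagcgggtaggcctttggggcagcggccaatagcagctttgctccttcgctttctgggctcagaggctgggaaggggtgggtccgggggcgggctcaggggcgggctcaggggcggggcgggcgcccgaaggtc
Fam162a: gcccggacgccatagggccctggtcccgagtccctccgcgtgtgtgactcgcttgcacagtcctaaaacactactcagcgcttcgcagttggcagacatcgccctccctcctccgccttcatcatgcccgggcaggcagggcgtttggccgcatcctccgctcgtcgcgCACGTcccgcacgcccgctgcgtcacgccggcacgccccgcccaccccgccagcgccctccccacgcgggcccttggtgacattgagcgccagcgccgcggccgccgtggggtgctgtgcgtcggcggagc
Ero1l: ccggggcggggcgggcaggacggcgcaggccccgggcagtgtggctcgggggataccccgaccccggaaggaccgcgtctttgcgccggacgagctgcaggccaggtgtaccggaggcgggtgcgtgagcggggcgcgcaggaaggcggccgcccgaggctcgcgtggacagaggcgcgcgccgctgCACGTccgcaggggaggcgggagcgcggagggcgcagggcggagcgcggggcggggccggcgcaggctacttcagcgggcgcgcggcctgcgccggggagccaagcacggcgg
Pdyn: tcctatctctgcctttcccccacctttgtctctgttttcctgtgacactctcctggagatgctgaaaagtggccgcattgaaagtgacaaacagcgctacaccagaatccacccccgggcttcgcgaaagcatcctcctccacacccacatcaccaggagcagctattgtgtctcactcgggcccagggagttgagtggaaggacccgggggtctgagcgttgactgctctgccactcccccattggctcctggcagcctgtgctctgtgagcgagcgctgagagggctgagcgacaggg

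Of the 13 genes of the glycolysis and hypoxia-induced lists that were higher in members in both libraries (below), 8 had the core in at least 1 window: Pgk1, Fam162a, Ero1l, Mif, P4ha1, Aldoa, Gapdh and Pgam1. The core was present in 19.6% of all 32851 windows, in at least 1 window of 21.8% of all 27025 genes, and in 31.0% of the 12388 genes with at least 10 CG dinucleotides in a window. The glycolytic genes Gpi1, Pfkl, Pfkp, Tpi1 and Eno1 had no ACGTG on either strand, nor had Spp1, Ttyh1, Adm2 and Igf1r, which were also high in members. Other forms of the core were not searched for. A match is a run of letters and not a measured binding site. The 13 genes come from lists of glycolysis and hypoxia-induced genes, and the share with the core among list genes not higher in members was not computed. A link between the core and membership was not tested.

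Members made up 7.55% of the beta barcodes of the Malat1-null library (134 of 1776, exact interval 6.36 to 8.87%) and 29.7% of those of the wild-type library (267 of 898, 26.8 to 32.8%). This split follows from applying a common limit to both libraries and is a description. Members held somewhat more UMIs than the other beta barcodes, with medians of 52774.5 against 48815 in the Malat1-null library and 66371 against 61160 in wild type. Insulin transcripts took a median of 56.1% of UMIs in Malat1-null members and 58.7% in the other Malat1-null beta barcodes, and 49.4% in wild-type members and 51.5% in the other wild-type beta barcodes. The mitochondrial share was alike, at medians of 1.14 and 1.17% in the Malat1-null library and 1.24 and 1.18% in wild type. No beta barcode sequence was shared between the libraries.

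**Figure D1:**
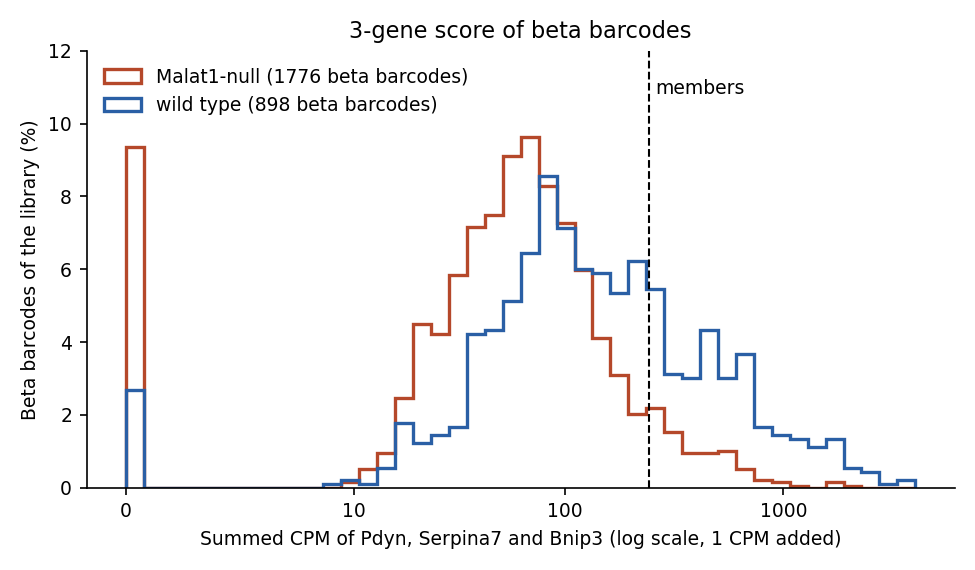
Share of each library's beta barcodes (y axis, %) by the summed CPM of Pdyn, Serpina7 and Bnip3 (x axis, log scale with 1 CPM added), for the Malat1-null and the wild-type library. The dashed line marks the member limit of 241.9 CPM; both distributions run through it without a gap, and 7.55% of Malat1-null and 29.7% of wild-type beta barcodes lie to its right.

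The deletion was checked first. Malat1 had 0 UMIs in Malat1-null members and 35 in the other Malat1-null beta barcodes, against 176970 in wild-type members and 382351 in the other wild-type beta barcodes. Insulin and the hormones of other islet cells were part of the choice of barcodes and cannot serve to check the label of beta cell. Of genes the choice did not use, Iapp and the beta-cell factors Pdx1, Nkx6-1, Neurod1 and Mafa were all measured in members. Markers of endothelial, mesenchymal and lymphoid cells summed to between 0.307 and 14.6 CPM per list in any of the 4 sums of barcodes, and macrophage markers to between 22.7 and 39.1 CPM. Alpha-cell markers summed to 595.2 CPM in Malat1-null members and 560.0 CPM in the other Malat1-null beta barcodes, and to 537.7 and 558.6 CPM in wild type. Delta-cell markers summed to 14.4 CPM in Malat1-null members and 102.6 CPM in the other Malat1-null beta barcodes, and to 6.87 and 10.3 CPM in wild type. PP-cell markers summed to 129.8 and 498.0 CPM and to 140.4 and 236.1 CPM, in the same order. Delta-cell and PP-cell sums were thus lower in members of both libraries and the alpha-cell sum was higher in Malat1-null members. The delta-cell list holds Sst, which the choice limited, and the PP-cell list holds Pyy, at 332.9 CPM in the other Malat1-null beta barcodes. There, 5 barcodes carried 52.0% of the 7137 Sst UMIs and 42.4% of the Pyy UMIs. The choice limited Gcg as well, which stood at 22.2 CPM in Malat1-null members and 44.0 CPM in the other Malat1-null beta barcodes. Of 5 alpha-cell markers measured in the Malat1-null library, 2 were lower in members and 0 higher, although their list sum was higher. The alpha-cell, delta-cell and PP-cell sums therefore do not check the label of beta cell. Acinar markers differed in direction between the libraries and are given with the genotype comparison.

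By the rule, Pdyn stood at 270.5 CPM in Malat1-null members against 16.9 CPM in the other Malat1-null beta barcodes, and at 340.1 against 30.3 CPM in wild type. Serpina7 stood at 73.1 against 8.38 CPM and 107.2 against 17.9 CPM, and Bnip3 at 136.1 against 45.8 CPM and 236.4 against 44.4 CPM, in the same order of libraries. These values chose the members, and the 3 genes are left out of every count that follows. Their genes lie at chr2:129686565-129699844, chrX:139079257-139085236 and chr7:138890836-138909519 (GRCm38).

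Away from those 3 genes, glycolytic and some hypoxia-induced genes stood higher in members, and several genes of mature beta-cell function stood lower. A gene was counted as apart when its summed level differed at least 1.5-fold with an interval that excluded 1, at 20 CPM or more in either sum and 50 UMIs or more over both. In the Malat1-null library 141 of 4046 genes were higher in members (3.48%) and 94 were lower (2.32%). In wild type 104 of 3949 were higher (2.63%) and 22 lower (0.557%). In both libraries 52 of 3762 genes were higher (1.38%) and 15 lower (0.399%); 1 gene, Ctrb1, was lower in Malat1-null members and higher in wild-type members. The rule picked its members from these same cells, so the counts describe the members and test nothing.

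**Figure D2:**
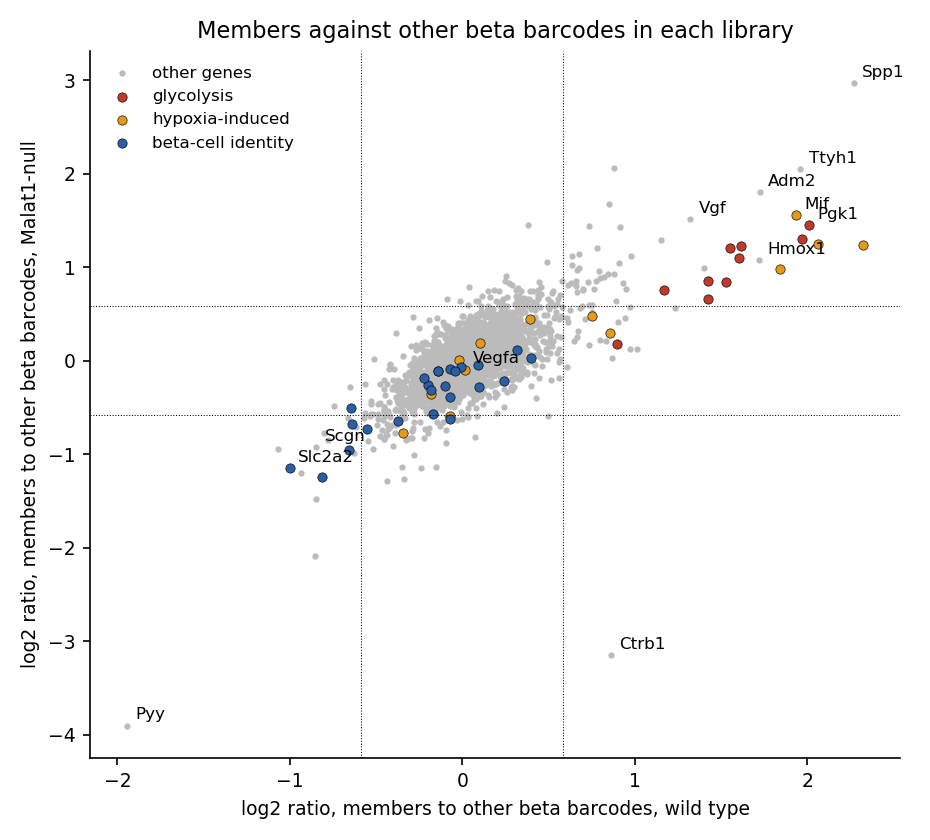
log2 ratio of members to other beta barcodes of the same library for each gene measured in both, with wild type on the x axis and Malat1-null on the y axis; dotted lines mark 1.5-fold. Glycolysis genes and Mif lie in the upper right, Slc2a2 and other beta-cell identity genes lie in the lower left, and Vegfa lies near 0.

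Glycolytic genes were widely higher in members. Of the 11 genes of that list measured in both libraries, 9 were higher in members and 0 lower, beside 1.38% of all genes higher: Gpi1, Pfkl, Pfkp, Aldoa, Tpi1, Gapdh, Pgk1, Pgam1 and Eno1, which span the path from glucose 6-phosphate to phosphoenolpyruvate. The median log2 ratio of the measured list was 0.85 in the Malat1-null library and 1.54 in wild type, against 0.02 over all genes in each. Pgk1 stood at 159.0 CPM in Malat1-null members against 58.1 CPM in the other Malat1-null beta barcodes (2.74-fold, 2.56 to 2.92), and at 278.7 against 69.1 CPM in wild type (4.04-fold, 3.86 to 4.22). Eno1, enolase, was 2.34-fold higher (2.16 to 2.53) in Malat1-null members and 3.07-fold higher (2.92 to 3.23) in wild-type members.

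Per barcode the ranges overlapped. Pgk1 ran between 0 and 1023 CPM with a median of 86.5 in Malat1-null members, against 0 to 467.8 with a median of 43.4 in the other Malat1-null beta barcodes, and between 0 and 1301 with a median of 238.5 in wild-type members, against 0 to 890.5 with a median of 55.9. The last step of the path, pyruvate kinase Pkm, was 1.13-fold higher in Malat1-null members and 1.86-fold higher in wild-type members. The lactate enzyme Ldha, usually near silent in beta cells, reached the 20 CPM limit in wild type but not in Malat1-null: it had 540 UMIs in 63 of the 267 wild-type members, and 35 UMIs in 8 Malat1-null members, 91.4% of them in 5 barcodes. When members were chosen by Pdyn and Serpina7 alone, 1 of 11 glycolysis genes was higher in the Malat1-null library and 8 of 11 were higher in wild type. Pgk1 was then the 1 glycolysis gene still higher in both libraries, at 1.72-fold and 2.06-fold, and 31 genes in all were higher in both. The share of all genes higher in each library under that choice is not given here. The counts of 1 of 11 and 8 of 11 therefore stand without a background.

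Of 13 hypoxia-induced genes measured in both libraries, 4 were higher in members of both and 0 lower in both, beside 1.38% and 0.399% of all genes. Taken singly, the Malat1-null library had 4 of 13 measured higher and 2 lower, beside 3.48% and 2.32% of all genes. Wild type had 8 of 16 higher and 0 lower, beside 2.63% and 0.557%. Mif, a cytokine, stood at 413.9 against 141.1 CPM in the Malat1-null library (2.93-fold, 2.82 to 3.05) and 884 against 231 CPM in wild type (3.83-fold, 3.73 to 3.92). Fam162a was 2.35-fold and 5.01-fold higher, Ero1l 2.38-fold and 4.17-fold, and P4ha1, a collagen prolyl hydroxylase, 1.97-fold and 3.59-fold, with the Malat1-null value given first. Other known targets were not apart in both libraries: Vegfa, the angiogenic factor, was at 0.935 and 1.01 of the other beta barcodes, and Ddit4, an mTOR inhibitor, at 0.659 and 0.951. Without Bnip3 in the score, Mif and Ero1l remained higher in both libraries, at 1.67-fold and 1.73-fold in Malat1-null and 1.91-fold and 2.096-fold in wild type.

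The oxygen-sensing machinery itself was not apart in both libraries for any of 6 measured genes. Hif1a was 1.57-fold higher in Malat1-null members and 1.24-fold higher in wild-type members, and Egln1, an oxygen-sensing hydroxylase that is itself a HIF target, was 1.37-fold and 1.92-fold higher. None of the 76 nuclear oxidative phosphorylation genes, 11 mitochondrially encoded genes, 78 ribosomal protein genes, 25 ER folding genes or 10 mitophagy and autophagy genes was apart in both libraries in either direction.

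Several of the highest genes belonged to none of these lists. Spp1 (osteopontin, a secreted phosphoprotein, chr5:104435118-104441050) stood at 413.8 against 52.8 CPM in the Malat1-null library (7.84-fold, 7.48 to 8.21) and 1282 against 265.4 CPM in wild type (4.83-fold, 4.72 to 4.94). In Malat1-null members much of that sum rests on few barcodes. The median Malat1-null member had 0 CPM of Spp1 and the highest 12013, 56 of the 134 held any, and 5 barcodes carried 49.5% of the UMIs. In wild-type members the median was 86.6 CPM, the highest 27648, 187 of the 267 held any, and 5 barcodes carried 22.6%. Among the other beta barcodes 5 carried 22.5% in Malat1-null and 24.0% in wild type. Spp1 also marks ductal cells. Of the 6 ductal markers measured in both libraries it alone was apart; the keratins Krt7, Krt8 and Krt18 were at 0.903 to 1.18 of the other beta barcodes, the 10 ductal markers summed to 1176 against 831.1 CPM in Malat1-null and 2160 against 1155 CPM in wild type, Spp1 included, and Sox9 had 0 UMIs in members of both libraries. A limit on the summed markers of ductal, acinar, endothelial, mesenchymal, macrophage and lymphoid cells, which counts Spp1 itself, removed 11 of 134 Malat1-null members and 14 of 1642 other Malat1-null beta barcodes, and 58 of 267 wild-type members and 51 of 631 other wild-type beta barcodes. Without those barcodes Spp1 was 3.13-fold higher in Malat1-null and 3.11-fold in wild type. With Spp1 not counted in the sum, the limit removed 3 and 36 barcodes in Malat1-null and 30 and 65 in wild type, and Spp1 was 7.69-fold and 4.76-fold higher. The part of other cells in the Spp1 values was not tested further.

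Ttyh1, a membrane protein of the tweety family, was 4.13-fold higher (3.62 to 4.70) in Malat1-null members and 3.90-fold higher (3.55 to 4.28) in wild-type members. Adm2, the peptide intermedin, was 3.47-fold and 3.31-fold higher, Vgf, a granin-family secretory peptide precursor, 2.85-fold and 2.50-fold, and the growth factor receptor Igf1r 2.45-fold and 2.22-fold. With Vgf, 2 of 14 granin and prohormone-processing genes were higher in both libraries; the other was Pam, which amidates peptide hormones, at 1.94-fold and 1.73-fold. Of 15 integrated stress response genes, 3 were higher: Phgdh, of serine synthesis, at 2.18-fold and 1.55-fold, Nupr1, a stress-induced nuclear protein, at 1.84-fold and 1.74-fold, and Eif4ebp1, a translation inhibitor, at 1.70-fold and 1.70-fold. Their upstream factor Atf4 was at 1.08 and 1.15. Of 20 Nrf2 and antioxidant genes, Hmox1, the heme oxygenase, was the only one apart in both libraries, at 2.11-fold and 3.30-fold.

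On the lower side, 4 of 23 beta-cell identity genes were lower in members of both libraries, beside 0.399% of all genes, and 0 were higher. Slc2a2, the GLUT2 glucose transporter (chr3:28697903-28731359), stood at 47.4 against 105.2 CPM in the Malat1-null library (ratio 0.451, 0.404 to 0.503) and 21.7 against 43.5 CPM in wild type (0.4997, 0.449 to 0.556). Mlxipl, the glucose-responsive factor ChREBP, had ratios of 0.420 and 0.569, Ppp1r1a, a phosphatase inhibitor, 0.517 and 0.633, and Glp1r, the incretin receptor, 0.626 and 0.643. Transcription factors of mature beta cells varied more between libraries: Mafa was at 0.675 in Malat1-null and 0.890 in wild type, and Pdx1 at 0.638 and 0.772. Slc30a8, the granule zinc transporter, was at 0.604 and 0.681.

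Further genes lower in both libraries were Scgn, the calcium sensor secretagogin (0.526 and 0.556), Gadd45b, a stress-response gene (0.357 and 0.556), and Hspb1, a small heat shock protein (0.233 and 0.553). Pyy, a gut and PP-cell peptide, had the lowest ratios, 0.067 and 0.260, but 5 barcodes held 42.4% of its UMIs in the other Malat1-null beta barcodes and 87.4% in the other wild-type ones. Hspb1 was likewise uneven, with 41.7 and 24.9% of its UMIs in 5 of the other beta barcodes of each library, and without the barcodes over the first marker limit its ratios were 0.577 and 0.839.

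Over 10 ranges of the pooled score, each with at least 42 barcodes per library, the glycolysis sum stayed between 1206 and 1507 CPM in ranges 1 to 8 of the Malat1-null library and reached 1811 and 2538 CPM in ranges 9 and 10. In wild type it lay between 1227 and 1733 CPM in ranges 1 to 8, then at 2264 and 4391 CPM. Slc2a2 in the Malat1-null library was at 107.8 CPM in range 1, 79.3 CPM in range 8 and 38.1 CPM in range 10, while in wild type it moved between 35.4 and 55.7 CPM up to range 9 and was at 19.7 CPM in range 10. Vegfa lay between 149.6 and 174.5 CPM in Malat1-null and 170.5 and 209.7 CPM in wild type in every range.

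**Figure D3:**
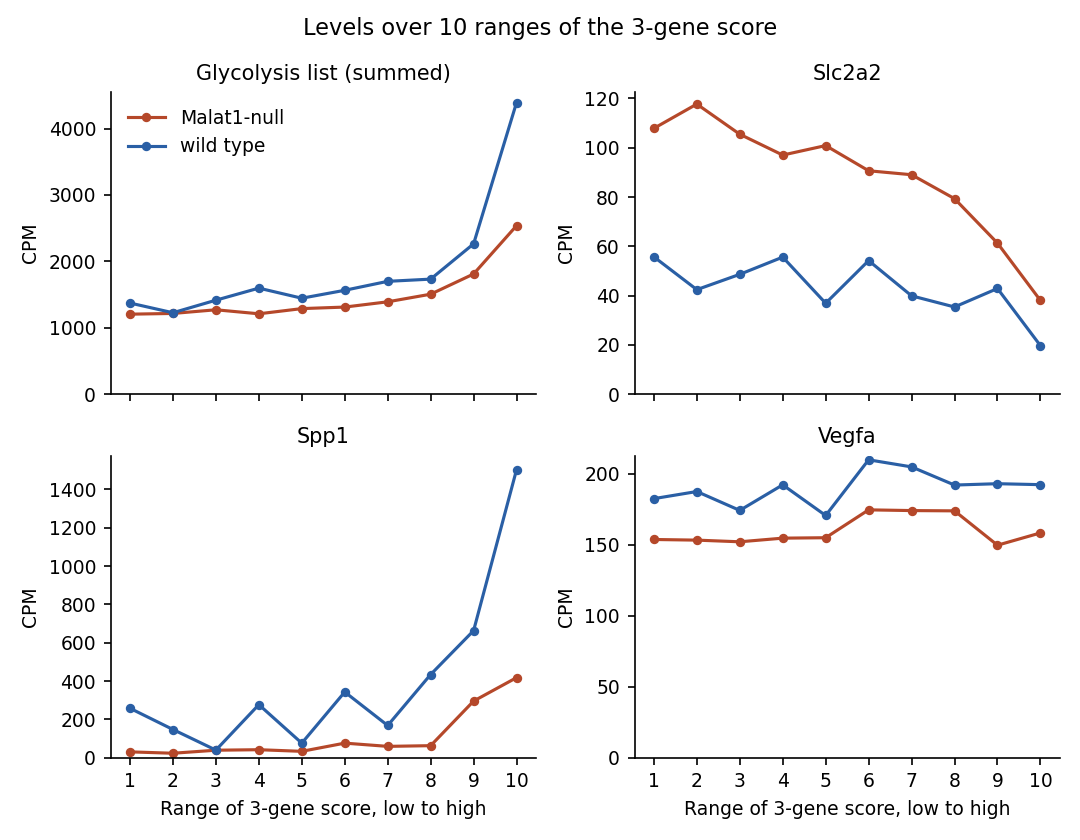
Summed CPM (y axes) of the glycolysis list, Slc2a2, Spp1 and Vegfa over 10 ranges of the 3-gene score, low to high (x axis), in the Malat1-null and wild-type library. The glycolysis sum is highest in range 10, at 2538 CPM in Malat1-null and 4391 CPM in wild type, while Vegfa stays level.

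The members were not uniform. They were divided by which of the 3 genes had most UMIs in the barcode, a division made after the values had been seen (2 of 401 members had a tie). Pdyn led in 79 Malat1-null and 125 wild-type members, Serpina7 in 22 and 43, and Bnip3 in 33 and 99, which is 24.6% and 37.1% of members for Bnip3. Each subset was compared with the other beta barcodes of its library.

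In Bnip3-led members the glycolytic and hypoxia-induced genes stood farthest from the other beta barcodes. In both libraries 63 of 3852 genes were higher (1.64%) and 37 lower (0.961%), and these included 10 of 11 glycolysis genes, Pkm being the tenth, and 7 of 16 hypoxia-induced genes. The rest of the hypoxia-induced list was not apart in both libraries. Among these genes, Vegfa had ratios of 1.07 in Malat1-null and 1.19 in wild type, Ddit4 0.498 and 1.01, and Bhlhe40 0.720 and 0.893. Nfil3 had 0.938 and 0.763, while Ndrg1 had 1.59 and 1.48 and Vldlr 1.48 and 1.78. Pgk1 was 5.55-fold higher (5.08 to 6.06) in Malat1-null and 6.08-fold (5.78 to 6.40) in wild type, and Fam162a 5.16-fold (4.48 to 5.93) and 9.33-fold (8.66 to 10.05). Pdk1, the kinase that closes the entry of pyruvate into mitochondria, was 3.98-fold and 4.35-fold higher, and the prolyl hydroxylases P4ha1 and P4ha2 were 3.69-fold and 2.98-fold higher in Malat1-null and 5.51-fold and 6.56-fold in wild type. The HIF target Egln1 (1.84-fold and 3.07-fold) and the mitophagy receptor Bnip3l (1.78-fold and 2.57-fold) were then apart in both libraries too. Slc2a1, the GLUT1 transporter, had 212 UMIs in wild-type Bnip3-led members and was apart there at 16.3-fold (12.5 to 21.4); in Malat1-null ones it had 29 UMIs, at 17.3 CPM under the limit of 20 CPM, with a ratio of 6.99 (4.57 to 10.3). Ldha differed between the libraries here, with 3 UMIs in the 33 Malat1-null and 335 UMIs in the 99 wild-type Bnip3-led members.

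The Bnip3-led members also had the most identity genes lower, 8 of 23. Besides Slc2a2 (0.235 and 0.464), Mlxipl, Ppp1r1a and Glp1r, these were Mafa (0.360 and 0.582), Slc30a8 (0.391 and 0.594), Pdx1 (0.588 and 0.663) and Sytl4, a granule docking protein (0.598 and 0.622). Txnip, a glucose-induced inhibitor of thioredoxin, was at 0.392 and 0.444. The insulin genes, which the choice of beta barcodes used, stood at 0.648 (0.646 to 0.651) for Ins1 and 0.735 for Ins2 in Malat1-null Bnip3-led members, and at 0.917 and 0.974 in wild-type ones.

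Pdyn-led members had fewer glycolysis genes higher and some high genes in common with Bnip3-led members. In both libraries 47 of 3872 genes were higher (1.21%) and 21 lower (0.542%). The higher genes were led by Spp1 (6.44-fold and 5.93-fold, beside 14.5-fold and 4.12-fold in Bnip3-led members), Ttyh1 (4.81-fold, 4.14 to 5.57, and 5.75-fold, 5.20 to 6.35) and Vgf (3.10-fold and 3.09-fold). Spp1 was uneven between barcodes. In Malat1-null Pdyn-led members its median was 0 CPM and its highest value 12013 CPM. In Malat1-null Bnip3-led members these were 54.9 and 11228 CPM, so the Malat1-null Spp1 ratios rest largely on few barcodes. Spp1 exceeded the 95th percentile of the other beta barcodes in 12 of 79 Pdyn-led and 11 of 33 Bnip3-led Malat1-null members. In wild type it did so in 28 of 125 and 18 of 99. The serine-synthesis genes Psat1 (2.47-fold and 2.33-fold), Psph (2.87-fold and 2.07-fold) and Phgdh (2.27-fold and 1.79-fold) were higher, as were 4 of 11 glycolysis genes, Pgk1, Eno1, Tpi1 and Pfkl, and 3 of 13 hypoxia-induced genes, Mif, Fam162a and Ero1l. Their ratios were nearer to 1 than in Bnip3-led members, a difference that was not tested: Pgk1 was 1.84-fold and 3.22-fold higher. The metallothioneins Mt1 and Mt2, metal-binding stress proteins, were both lower, at 0.548 and 0.423 in Malat1-null and 0.481 and 0.459 in wild type, whereas Mt1 was 1.47-fold and 1.52-fold higher and Mt2 1.58-fold and 1.54-fold higher in Bnip3-led members. Identity genes lower in Pdyn-led members were Slc2a2, Glp1r, Mlxipl and Ppp1r1a.

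Serpina7-led members had 41 of 3855 genes higher (1.06%) and 26 lower (0.674%) in both libraries. None of their measured hypoxia-induced genes was higher in both, and 1 of 10 glycolysis genes was, Pgk1 at 1.54-fold and 1.61-fold. Their highest genes were Steap1, a membrane protein of the STEAP family (4.22-fold and 3.59-fold), Tenm4, a teneurin adhesion protein (3.42-fold and 3.01-fold), and Psph (2.41-fold and 2.49-fold). In the Malat1-null subset Steap1 rested on 28 UMIs (interval 2.77 to 6.17) and Tenm4 on 44 UMIs (2.47 to 4.63). Nupr1 was 3.34-fold and 1.96-fold higher. Slc2a2 was lower in this subset as well, at 0.369 and 0.410. The Bnip3-led and Pdyn-led subsets shared 24 higher genes, 38.1% of the 63 and 51.1% of the 47; both are set against the same other beta barcodes. Among the 24 were Spp1, Ttyh1, Vgf, Igf1r, Adm2, Pam and Hmox1.

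**Figure D4:**
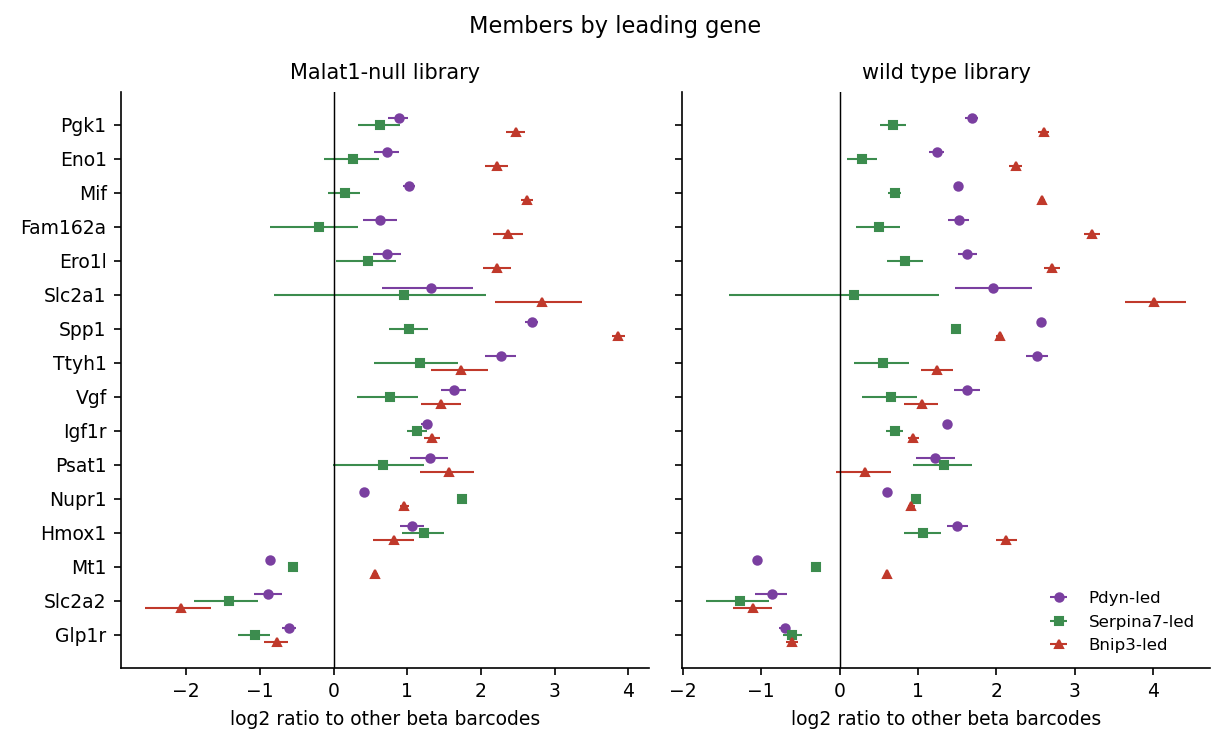
log2 ratio to the other beta barcodes of the same library (x axis) for 16 genes (y axis), for Pdyn-led, Serpina7-led and Bnip3-led members, Malat1-null at left and wild type at right; bars are 95% counting intervals. Pgk1, Eno1, Mif, Fam162a and Ero1l are farthest right in Bnip3-led members, Mt1 is right of 0 only in Bnip3-led members, and Slc2a2 and Glp1r are left of 0 in all 3.

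The same was seen per barcode. Of the Bnip3-led members, 31 of 33 in Malat1-null (93.9%, exact interval 79.8 to 99.3%) and 91 of 99 in wild type (91.9%, 84.7 to 96.4%) had a glycolysis sum above the 95th percentile of the other beta barcodes of their library. The share was 20.3% (12.0 to 30.8%) and 42.4% (33.6 to 51.6%) for Pdyn-led members and 13.6% (2.91 to 34.9%) and 11.6% (3.89 to 25.1%) for Serpina7-led members. The Bnip3-led subset was chosen by Bnip3, itself a HIF-1 target, so its high list values describe the choice and do not test the name of a hypoxic type. Most members were led by Pdyn or Serpina7, and most of those lay below that level.

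**Figure D5:**
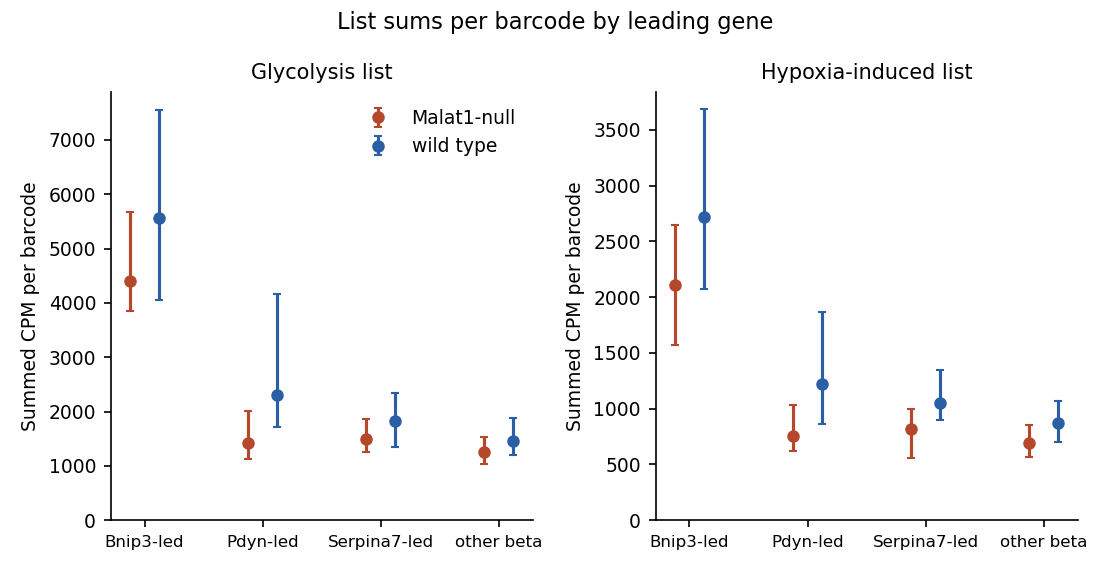
Median (point) and quartiles (bars) of the summed CPM per barcode (y axes) of the glycolysis and hypoxia-induced lists in Bnip3-led, Pdyn-led and Serpina7-led members and other beta barcodes (x axes), Malat1-null left of wild type. The Bnip3-led medians of the glycolysis sum are 4395 CPM in Malat1-null and 5560 CPM in wild type, against 1247 and 1448 CPM in the other beta barcodes.

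Between the genotypes, 96 of 4040 genes were higher (2.38%) and 136 lower (3.37%) in Malat1-null than in wild-type members. Of these, 28 and 40 were also apart in the same direction in the other beta barcodes, where 82 of 3982 were higher (2.06%) and 60 lower (1.51%). Scaling to total UMIs in place of TMM (trimmed mean of M-values) moved the median log2 ratio of all genes to -0.11 in members and -0.14 in the other beta barcodes, and the split to 51 higher and 226 lower; differences below are relative to the TMM median of 0.02 and 0.03.

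The glycolysis list was lower in Malat1-null members for 9 of 12 genes (median log2 -0.80), against 0 of 10 in the other beta barcodes (median -0.18). Pgk1 was at 0.570 of the wild-type level in members (159.0 against 278.7 CPM) and at 0.841 in the other beta barcodes, and Fam162a at 0.424 and 0.904. The mixture of members differed, since Bnip3-led ones were 24.6% in Malat1-null and 37.1% in wild type. The score that chose the members differed too, with a median of 361 CPM in Malat1-null members and 503 CPM in wild-type members. The glycolysis sum was highest in the top score range of both libraries. The part of the score and of the mixture in the glycolysis difference was not tested. Within Bnip3-led members 4 of 12 glycolysis genes were lower and 1 higher (median -0.39), where 274 of 4167 genes were lower (6.58%) and 234 higher (5.62%). Within Pdyn-led members 10 of 12 were lower (median -0.92), where 160 of 4105 genes were lower (3.90%) and 123 higher (3.00%). Within Serpina7-led members 0 of 11 were apart (median -0.29), where 192 of 4219 were lower (4.55%) and 241 higher (5.71%).

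Integrated stress response genes were higher in Malat1-null members for 8 of 17, beside 2.38% of all genes. Among them were Ppp1r15a, a phosphatase subunit that restores translation (2.21-fold), Phgdh (2.15-fold) and Atf4 (1.52-fold). In the other beta barcodes 5 of 15 were higher, beside 2.06% of all genes, with Ppp1r15a at 1.62-fold and Atf4 at 1.63-fold. Both measured metallothioneins were lower in Malat1-null, Mt1 at 0.320 and Mt2 at 0.283 in members and 0.362 and 0.347 in the other beta barcodes. Slc2a2 was 2.18-fold higher in Malat1-null members and 2.42-fold higher in the other Malat1-null beta barcodes. Among the highest ratios in members were Star, a mitochondrial cholesterol carrier (5.85-fold, and 2.68-fold in the other beta barcodes), Wdfy1 (4.22-fold and 2.90-fold), Tmsb15b2 (3.93-fold and 3.59-fold), Cox6a2, a cytochrome c oxidase subunit (3.05-fold and 2.55-fold), Enpp2, the secreted enzyme autotaxin (2.69-fold and 2.81-fold), and Steap1 (2.43-fold and 1.00), with the value in the other beta barcodes second. Much of the Star sum rests on few barcodes: 5 carried 54.7% of its 258 UMIs in Malat1-null members, and 49 members held any. In addition, 177 UMIs of Hamp, the iron hormone hepcidin, lay in 3 Malat1-null members.

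The lowest ratios beside Malat1 were genes of exocrine pancreas: Reg3b, Try4, Reg1, Try5, Reg2, Prss2 and Cela1. The 8 acinar markers summed to 9.49 CPM in Malat1-null members and 78.9 CPM in the other Malat1-null beta barcodes, against 450.6 CPM in wild-type members and 210.1 CPM in the other wild-type beta barcodes, with none at 0 UMIs in any of these sums. In wild-type members 5 barcodes carried 79.9% of the Prss2 UMIs, 80.9% of Try5 and 96.5% of Reg3b, so these sums describe a few barcodes; the part of acinar RNA in other results was not tested, and leaving out barcodes with high markers of other cells and doublet calls gave 8 glycolysis and 4 hypoxia-induced genes higher in both libraries.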

How the data were processed

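Single cells of cultured islets were profiled with the 10x 3-prime v3 kit. The deposited matrices hold unfiltered UMI counts for every barcode and were made by the authors with Cell Ranger 4 per the file headers; Cell Ranger 2.1.0 and mm10 are named in the submitters' processing notes. The libraries totalled 134950186 (Malat1-null) and 81872519 (wild type) UMIs over 32285 genes. UMIs of members and of other beta barcodes were summed per library and scaled with TMM factors (edgeR 4.0.16); ratios have exact conditional Poisson intervals, levels exact Poisson ones, shares Clopper-Pearson ones, all at 95%. Scrublet (scanpy 1.11.5) called 0 Malat1-null and 4 wild-type doublets, none a member, so how many remain is not known; a limit on markers of other cells removed 11 and 58 members. Members and 37 gene lists were chosen with earlier results of these data known. Named genes were the 12 highest and 12 lowest ratios in both libraries, the 8 highest and lowest between genotypes, and list genes; genes of the subsets by leading gene were chosen after values were seen. In Poisson counts simulated for members against other beta barcodes, 100% of 2-fold and 0% of 1.25-fold changes, and 0 of 3716 (Malat1-null) and 0 of 3597 (wild type) unchanged genes, were counted as apart. The simulation had no added spread between barcodes and no choice of members by score. It therefore does not give the rate of false calls in these data. Coordinates came from GENCODE M21 (GRCm38), which held 32158 of the 32285 identifiers.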

Additional observations from a re-analysis of the deposited data

How the results depend on the processing

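None of 64 values of named genes reversed under any of 14 alternatives, and choosing members on a random part of each barcode's UMIs with levels taken from the rest gave 51 genes higher and 13 lower in both libraries, with 8 glycolysis and 4 hypoxia-induced genes higher. A top 10% gave member shares of 3.89% in Malat1-null and 22.0% in wild type and 24 genes lower in both libraries; a top 15% within each library gave 15.0% in each by construction. Ranking the 3 genes by mean rank gave 28 genes higher, 4 lower and 2 beta-identity genes lower. The score without Pdyn gave 8 genes lower in both, and 63 higher in Malat1-null than in wild-type members. The score without Bnip3 gave 31 genes higher, with 2 hypoxia-induced genes and 1 glycolysis gene. Total-count scaling gave 51 genes higher and 226 lower between genotypes. CPM outside hormone, mitochondrial and Malat1 UMIs gave 55 genes lower and 8 hypoxia-induced genes higher in members, and 230 higher and 299 lower between genotypes. A minimum of 50 CPM gave 29 and 7 in members and 40 and 53 between genotypes, and no minimum gave 167 and 106, 10 hypoxia-induced genes, and 487 and 752; fewer or more genes were then tested. The causes of the other shifts were not tested. No paired analysis was possible because there is 1 library per group and the titles' numbers only name libraries. Genes under 20 CPM in both sums or under 50 UMIs over them were not counted. In the sums of all members this left out Slc2a1 in both libraries and Ldha in Malat1-null. In wild-type Bnip3-led members Slc2a1 was over the limit, at 30.6 CPM.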
